A study of Mus musculus with 12 samples.

Results

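The 52 G2 and mitosis genes described here encode the machinery with which a cell passes from the end of DNA synthesis through chromosome segregation to the separation of daughter cells. They were taken by symbol from a table of 32227 genes, and all 52 had enough reads to be tested among the 15083 genes that passed the filter on low counts. For the account below they were divided by role into the CDK1 engine and anaphase control (10 genes), mitotic kinases and the chromosomal passenger complex (7), centromere and kinetochore (8), spindle microtubules and motors (11), cytokinesis (5), chromosome and chromatin structure (9) and the nuclear envelope (2).

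As background, cyclin-dependent kinase 1 bound to B-type cyclins drives a cell into mitosis, and the anaphase-promoting complex, a ubiquitin ligase, ends mitosis by having the cyclins and the chromosome glue destroyed. Transcripts of many of these genes, though not all, are scarce in resting cells and accumulate in G2, and the level of those in a bulk sample is commonly read as a sign of cycling cells. Basophils are short-lived granulocytes that arise in the bone marrow, and their mature form in the blood and tissues is thought not to divide. In bulk RNA, fewer cells of a type and less RNA per cell cannot be told apart.

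RNA was sequenced from sorted cells of wild-type C57BL/6J mice, in 4 groups of 3 libraries, to follow basophils as they mature. BaPs (basophil progenitors) were CD200R3+ cKit- CLEC12A-high cells of the bone marrow (BM) that carried CD34, pre-basophils were CD34- CLEC12A-high CD9-low BM cells, and BM mature and spleen mature basophils were CLEC12A-low CD9-high cells of either tissue. Cells of several animals were pooled for each library, and replicates therefore differ as pools do. The groups differ in the proteins used to sort them, and none of these is encoded by a gene described here.

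Library totals ran from 3596108 to 8151030 counts. Values are CPM, counts relative to a fixed total per library, with library sizes adjusted by edgeR's TMM factors (0.844 to 1.30), and a count of 3 corresponded to 0.291 to 0.955 CPM depending on the library. The basophil protease genes Prss34 and Mcpt8 were abundant in every library, with Prss34 at 17010 to 49580 CPM in BaPs and pre-basophils and at 883 to 5708 CPM in mature basophils. BaP replicate 3 stood apart from the other BaP libraries. Its summed level of 8 basophil markers was 24960 CPM, against 67480 and 62470 CPM in BaP replicates 1 and 2. Its 7 erythroid markers summed to 2401 CPM, against 10.8 and 11.6 CPM, and its 7 T or NK cell markers to 912 CPM, against 447 and 341 CPM. It lay below both other BaP libraries in 47 of the 52 genes and above both in 2, so BaP values are given with and without it.

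The genes of G2 and mitosis were high in both CLEC12A-high stages and low in both kinds of mature basophil. In pre-basophils 47 of the 52 were higher than in BM mature basophils and none was lower at an adjusted p under 0.05 (edgeR quasi-likelihood test, Benjamini-Hochberg over all tested genes). Of all tested genes, 16.4% were called higher and 10.9% lower in this comparison. The median log2 fold change of the 52 was 2.39 (single genes are given below as the log2 fold change ± its SE), against -0.004 over all tested genes, and 45 of the 47 differed by at least 2-fold. Over the 4 groups, 51 of the 52 passed the F test of edgeR, against 57.1% of all tested genes, and the exception was Cks2. By group means, 19 genes fell in the order BaP, pre-basophil, BM mature, spleen mature, and 30 in the same order with pre-basophils first.

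The summed level of the 52 genes was 6537, 5376 and 3904 CPM in BaP replicates 1 to 3 and 6242, 5405 and 5966 CPM in pre-basophils. It was 2281, 2157 and 2194 CPM in BM mature and 1492, 1545 and 1527 CPM in spleen mature basophils. The mature groups did not overlap with each other or with the CLEC12A-high groups. A few genes made up much of the sum in mature cells. Without Cks2, Lbr and Hmgb2, which were picked after their values were seen, the sums were 3809 to 4443 CPM in pre-basophils, 769 to 985 CPM in BM mature and 537 to 598 CPM in spleen mature basophils.

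**Figure D1:**
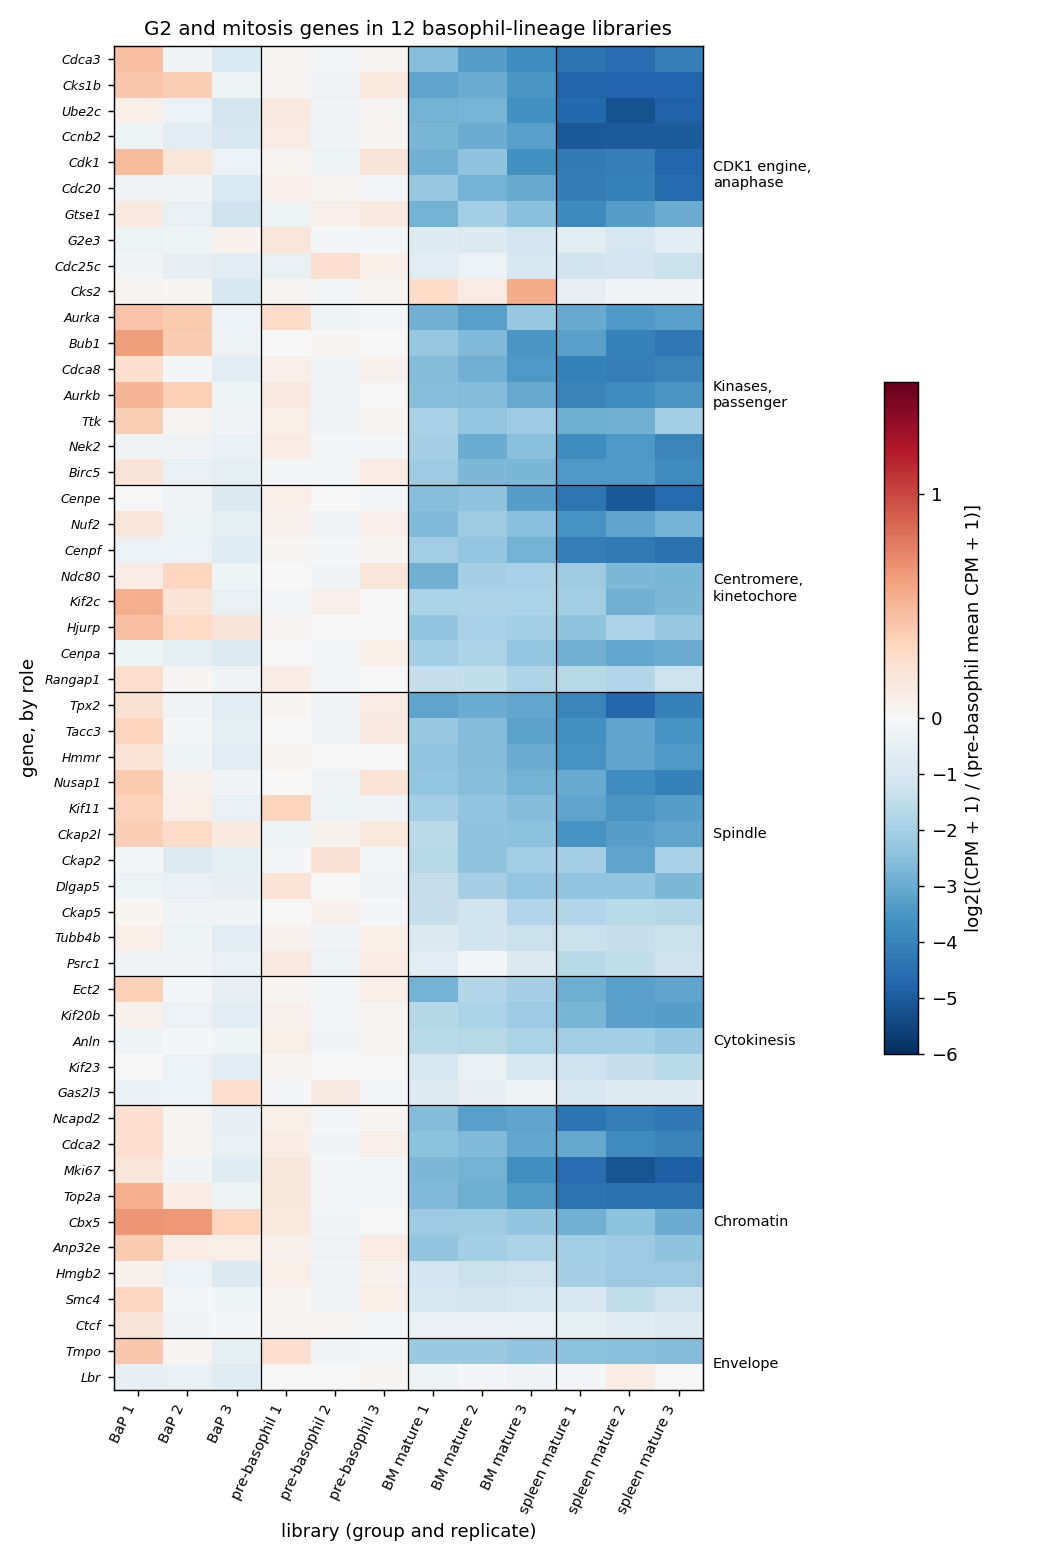
Level of each of the 52 genes (rows, by role) in each of the 12 libraries (columns), as log2 of (CPM + 1) over (pre-basophil mean CPM + 1). White is the pre-basophil mean, blue is lower and red is higher, with a finer scale for red than for blue. BM mature and spleen mature columns are blue in nearly every row, and the rows of Cks2 and Lbr stay pale.

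Many of these genes share 2 short promoter elements in textbook accounts of cell cycle control, and the stretches before the start sites of 7 members are shown so that the elements can be seen beside the expression values. The cell cycle genes homology region (CHR; TTTGAA or TTCGAA on either strand) is bound by the DREAM and MuvB complexes, which hold these genes off in resting cells and switch them on in G2. The CCAAT box (CCAAT on either strand) is bound by NF-Y. In the RefSeq windows of 300 bases around the start (250 before and 50 after, GRCm38.p6), available for 46 of the 52 genes, 36 (78.3%) held a CHR, against 21.7% of 27025 genes with a window and 20.2% of 17491 protein-coding genes. A CHR within 50 bases of the start, a distance chosen after positions were seen, was found in 29 of the 46 (63.0%), against 6.12% of all genes. At least 2 CCAAT boxes were found in 28 (60.9%), against 13.3% of all genes. A match in letters is a description and not evidence that a protein binds there.

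Below are the 100 bases just before the start of each gene, 5′ to 3′ on the gene's strand, with CHR and CCAAT matches in capitals. Cdk1, Cdc20, Ube2c, Top2a and Cks1b were at least 7-fold higher in pre-basophils than in BM mature basophils, and Cks2 and Lbr were among those that did not pass.
On GRCm38.p6 the stretches are Cdk1 at chr10:69352913-69353012 (minus strand), Cdc20 at chr4:118437344-118437443 (minus strand), Ube2c at chr2:164769829-164769928 (plus strand), Top2a at chr11:99024190-99024289 (minus strand), Cks1b at chr3:89418292-89418391 (minus strand), Cks2 at chr13:51645132-51645231 (plus strand) and Lbr at chr1:181842402-181842501 (minus strand).
Cdk1: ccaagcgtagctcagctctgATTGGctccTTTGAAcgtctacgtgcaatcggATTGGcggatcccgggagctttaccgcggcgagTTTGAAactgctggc
Cdc20: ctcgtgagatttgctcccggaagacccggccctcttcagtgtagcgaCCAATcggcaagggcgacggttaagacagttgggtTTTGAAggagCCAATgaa
Ube2c: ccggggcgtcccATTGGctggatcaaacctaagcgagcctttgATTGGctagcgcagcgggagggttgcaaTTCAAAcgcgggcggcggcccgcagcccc
Top2a: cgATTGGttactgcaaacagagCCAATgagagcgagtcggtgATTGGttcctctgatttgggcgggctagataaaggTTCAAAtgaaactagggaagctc
Cks1b: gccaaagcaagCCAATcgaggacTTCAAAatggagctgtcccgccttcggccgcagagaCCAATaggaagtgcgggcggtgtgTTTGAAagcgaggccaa
Cks2: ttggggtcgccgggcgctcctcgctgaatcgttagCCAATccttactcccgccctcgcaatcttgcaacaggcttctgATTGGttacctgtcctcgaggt
Lbr: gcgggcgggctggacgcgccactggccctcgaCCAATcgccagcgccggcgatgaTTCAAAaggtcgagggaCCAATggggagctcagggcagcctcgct
The CHR nearest the start lay 15 bases before it in Cdk1, 18 in Cdc20, 29 in Ube2c, 23 in Top2a and 17 in Cks1b. Cks1b and Cks2 encode closely related proteins, and the Cks2 window held CCAAT boxes 65 and 22 bases before the start but no CHR. Lbr held a CHR 45 bases before the start, between CCAAT boxes 68 and 28 bases before it, and it was nevertheless among the genes that did not pass. The 29 genes with a CHR near the start had a median log2 fold change of 2.39 for pre-basophil against BM mature, and the 17 without one had a median of 2.61.

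In the CDK1 engine, 8 of 10 genes were higher in pre-basophils than in BM mature basophils. Cdk1 encodes the kinase itself, and its fold change was 8.47 (log2 3.08 ± 0.32). Cdca3, a trigger of mitotic entry, stood at 67.4, 63.5 and 67.3 CPM in pre-basophils and at 10.50, 5.76 and 4.12 CPM in BM mature basophils, 10.2-fold apart (edgeR adjusted p = 7.01e-05). Cks1b, a small protein that docks on cyclin-dependent kinases, was at 135, 131 and 81.1 CPM in BaPs and at 103, 88.6 and 114 CPM in pre-basophils. It was at 10.50, 12.02 and 8.05 CPM in BM mature and 2.72, 2.81 and 2.79 CPM in spleen mature basophils. Both CLEC12A-high groups lay far above both mature groups, and BM mature lay above spleen without overlap. Cyclin B2, encoded by Ccnb2, partners CDK1, and was at 81.0, 64.1 and 48.6 CPM in BaPs and at 107, 88.4 and 100.8 CPM in pre-basophils. In BM mature basophils Ccnb2 was at 13.7, 11.52 and 9.36 CPM and in spleen mature basophils at 2.08, 2.15 and 2.12 CPM. No pair of the 4 groups overlapped, with pre-basophils highest and spleen lowest.

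Cdc20 and Ube2c act at the anaphase-promoting complex, as its activator and as the enzyme that supplies it with ubiquitin. Cdc20 stood at 59.5, 57.7 and 52.5 CPM in pre-basophils, at 10.8, 7.01 and 5.99 in BM mature and at 2.24, 2.48 and 1.33 CPM in spleen mature basophils. Ube2c was 8.71-fold higher in pre-basophils than in BM mature basophils (log2 3.12 ± 0.32). Gtse1, which binds microtubules and is named for its expression in G2, was 7.28-fold higher in pre-basophils, and the ubiquitin ligase gene G2e3 2.11-fold.

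Cdc25c and Cks2 were the members of this role that did not pass. Cdc25c encodes a phosphatase that activates CDK1, and stood at 8.11, 13.6 and 11.99 CPM in pre-basophils and at 7.001, 8.51 and 5.05 CPM in BM mature basophils. These groups overlapped (log2 0.73 ± 0.27, edgeR adjusted p = 0.0513), and with the replicate number as a block the gene passed at 0.75 on the log2 scale (edgeR adjusted p = 0.0403). Cdc25c passed under 8 of 20 alternative settings. Among them were library size alone (edgeR adjusted p = 0.0166), limma-voom (adjusted p = 0.0472) and the 6 compared libraries only (edgeR adjusted p = 0.0291). Cks2 stood at 526, 490.3 and 532 CPM in pre-basophils and at 623, 561 and 762 CPM in BM mature basophils. It was at 529, 528 and 259 CPM in BaPs and at 367, 458 and 455 CPM in spleen mature basophils. Every BM mature library lay above every pre-basophil library, against the direction of the other genes, but the difference did not pass (log2 -0.33 ± 0.22, edgeR adjusted p = 0.300). BaP replicate 3 was the lowest of the 12 libraries for Cks2, and without it the same difference passed (log2 -0.33, edgeR adjusted p = 0.0164).

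**Figure D2:**
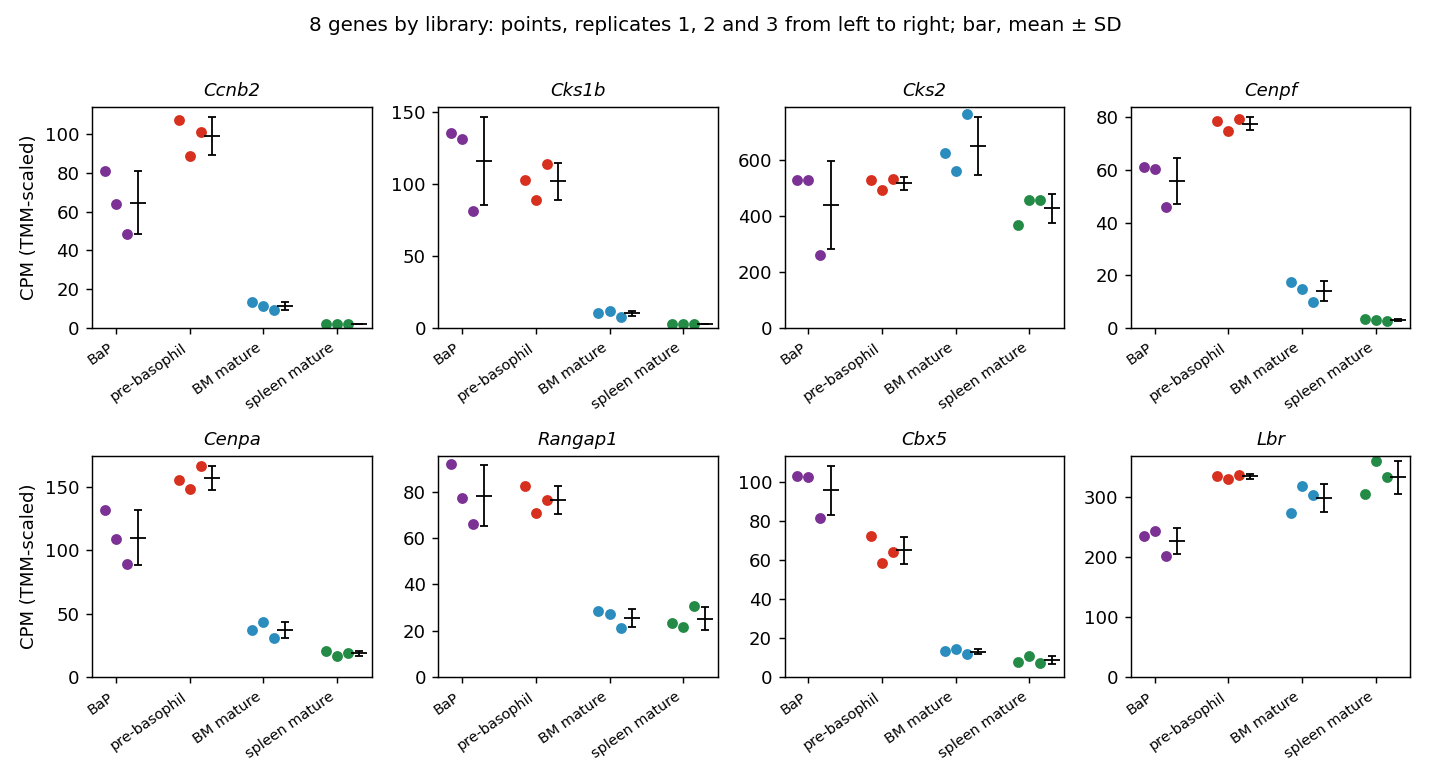
CPM of 8 genes in each library. Points are replicates 1, 2 and 3 from left to right within each group, and the bar beside them is the mean ± SD (n = 3). Ccnb2, Cks1b, Cenpf, Cenpa, Rangap1 and Cbx5 are lower in BM mature basophils than in pre-basophils, and the differences of Cks2 and Lbr did not pass the test.

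All 7 genes of the mitotic kinases and the passenger complex were higher in pre-basophils than in BM mature basophils, with log2 fold changes of 2.61 to 3.65. Aurka encodes aurora A, the kinase of the spindle poles. It stood at 15.3, 14.8 and 8.33 CPM in BaPs and at 13.7, 9.01 and 10.6 CPM in pre-basophils. In BM mature basophils it had 2, 1 and 8 counts and in spleen mature basophils 3, 1 and 2 counts, so that its spleen libraries were all at or under 3 counts. The fold change of 12.5 between pre-basophils and BM mature basophils was the largest of the 52 and rests on few mature reads. Bub1, a kinase of the spindle checkpoint, was at 21.0, 21.2 and 20.8 CPM in pre-basophils and at 3.50, 2.504 and 0.936 CPM in BM mature basophils, 9.64-fold apart (log2 3.27 ± 0.44). Its 3 spleen libraries held 8, 2 and 1 counts. Ttk, another checkpoint kinase, was 7.84-fold higher in pre-basophils, with 4, 3 and 5 counts in BM mature and 1, 1 and 8 counts in spleen mature libraries.

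Aurkb, Cdca8 and Birc5 encode aurora B, borealin and survivin, which form the chromosomal passenger complex with INCENP. Aurkb was 8.02-fold and Cdca8 8.45-fold higher in pre-basophils than in BM mature basophils. Birc5 stood at 106, 67.0 and 60.7 CPM in BaPs, at 86.7, 88.8 and 100.4 in pre-basophils, at 19.7, 13.5 and 12.7 in BM mature and at 7.52, 7.75 and 5.71 CPM in spleen mature basophils. Its mature groups overlapped neither with each other nor with the CLEC12A-high groups, and its fold change of 6.09 was the smallest of this role (edgeR adjusted p = 7.85e-07). Nek2, a kinase that separates the centrosomes, was at 22.4, 19.7 and 19.7 CPM in pre-basophils, at 4.46, 1.75 and 2.81 in BM mature and at 0.640, 0.990 and 0.398 CPM in spleen mature basophils. Spleen libraries of Nek2 held 4, 6 and 3 counts.

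The 8 centromere and kinetochore genes were also all higher in pre-basophils, by 1.58 to 2.83 on the log2 scale. Cenpe, a kinesin that carries chromosomes along the spindle, stood at 77.9, 67.9 and 43.0 CPM in BaPs and at 84.4, 77.9 and 76.6 CPM in pre-basophils. It stood at 12.7, 14.3 and 7.11 CPM in BM mature and 3.04, 1.49 and 2.26 CPM in spleen mature basophils, and all libraries of the mature groups were below all others. Nuf2, a subunit of the complex that grips microtubules, was at 32.7, 28.00 and 32.9 CPM in pre-basophils and at 4.14, 6.26 and 4.68 CPM in BM mature basophils. Its partner Ndc80 was 5.23-fold and the microtubule-depolymerizing kinesin gene Kif2c 5.08-fold higher in pre-basophils.

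Cenpf, a large protein of the outer kinetochore, was at 61.1, 60.4 and 45.9 CPM in BaPs, at 78.5, 74.7 and 79.3 in pre-basophils, at 17.5, 14.8 and 9.92 in BM mature and at 3.52, 3.13 and 2.52 CPM in spleen mature basophils. No pair of groups overlapped. Cenpa, the histone variant that marks the centromere, was at 132, 109 and 89.1 CPM in BaPs and at 156, 149 and 167 CPM in pre-basophils. It was at 36.9, 43.3 and 31.1 CPM in BM mature and 20.5, 17.0 and 19.0 CPM in spleen mature basophils, again without overlap between any pair of groups. Hjurp, the chaperone that deposits CENP-A, was 4.45-fold higher in pre-basophils than in BM mature basophils. Rangap1, which activates the GTPase of the Ran cycle and joins kinetochores in mitosis, stood at 82.5, 70.6 and 76.3 CPM in pre-basophils, at 28.6, 27.0 and 21.3 in BM mature and at 23.4, 21.6 and 30.8 CPM in spleen mature basophils. Its mature groups overlapped with each other and lay below the pre-basophils.

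Of the 11 spindle genes, 10 were higher in pre-basophils than in BM mature basophils. Tpx2, which activates aurora A and nucleates spindle microtubules, was at 80.5, 60.1 and 44.6 CPM in BaPs and at 70.2, 61.4 and 74.7 CPM in pre-basophils. It was at 6.68, 7.76 and 6.93 CPM in BM mature and 3.52, 1.65 and 3.19 CPM in spleen mature basophils, and the fold change of 9.62 between the BM groups was the largest of this role (edgeR adjusted p = 2.56e-07). Tacc3, a spindle protein that works with the microtubule polymerase encoded by Ckap5, was at 47.0, 41.6 and 51.98 CPM in pre-basophils and at 8.91, 6.76 and 4.12 CPM in BM mature basophils. Ckap5 itself was 2.81-fold higher in pre-basophils. The microtubule-binding genes Hmmr (7.12-fold), Nusap1 (6.95-fold) and Dlgap5 (4.14-fold), the bipolar spindle motor gene Kif11 (5.24-fold) and the cytoskeleton-associated genes Ckap2l (5.22-fold) and Ckap2 (5.03-fold) lay between Tpx2 and Ckap5.

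Tubb4b and Psrc1 changed least among the spindle genes. Tubb4b, a beta-tubulin, stood at 246, 192 and 144 CPM in BaPs, at 239, 206 and 245 in pre-basophils, at 124, 98.4 and 91.5 in BM mature and at 89.1, 88.8 and 90.8 CPM in spleen mature basophils. Its mature groups lay below its pre-basophils, and spleen libraries lay just below the lowest BM mature library. Psrc1, a regulator of spindle microtubules, stood at 7.55, 5.36 and 7.36 CPM in pre-basophils and at 3.82, 6.26 and 3.18 CPM in BM mature basophils, which overlapped (log2 0.62 ± 0.31, edgeR adjusted p = 0.151). In spleen mature basophils Psrc1 was at 1.44, 1.81 and 2.26 CPM, below every other library.

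In cytokinesis, 4 of 5 genes passed. Ect2, which switches on RhoA at the cell equator, stood at 25.2, 22.1 and 26.2 CPM in pre-basophils and at 2.55, 6.51 and 5.43 CPM in BM mature basophils. Kif20b, a kinesin needed for the final cut between daughter cells, stood at 59.5, 53.1 and 58.5 CPM in pre-basophils and at 16.6, 14.8 and 11.6 CPM in BM mature basophils. Anln encodes anillin, a scaffold of the contractile ring, and stood at 20.7, 17.3 and 19.99 CPM in pre-basophils and at 5.73, 5.51 and 4.49 CPM in BM mature basophils. The BM groups did not overlap for any of these 3 genes. In spleen mature libraries Ect2 held 15, 10 and 14 counts, with Kif20b at 7.68, 5.12 and 4.91 CPM and Anln at 3.84, 3.96 and 3.19 CPM.

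Kif23 and Gas2l3 kept more of their level. Kif23, a motor of the central spindle, was at 51.4, 39.8 and 33.1 CPM in BaPs, at 52.5, 51.4 and 50.4 in pre-basophils, at 24.5, 37.3 and 24.1 in BM mature and at 20.2, 19.0 and 15.9 CPM in spleen mature basophils. It was 1.79-fold higher in pre-basophils than in BM mature basophils (edgeR adjusted p = 0.00311), and of the called genes Ctcf alone had a smaller difference. Gas2l3, which links actin and microtubules, stood at 7.64, 7.78 and 12.6 CPM in BaPs, at 9.50, 11.4 and 9.91 in pre-basophils, at 5.41, 7.01 and 8.24 in BM mature and at 4.64, 5.61 and 5.58 CPM in spleen mature basophils. The BM groups did not overlap, but the difference did not pass (log2 0.56 ± 0.26, edgeR adjusted p = 0.121).

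All 9 chromosome and chromatin genes were higher in pre-basophils than in BM mature basophils. Ncapd2, a subunit of condensin I, which compacts mitotic chromosomes, was at 164, 143 and 97.02 CPM in BaPs and at 147, 127 and 142 CPM in pre-basophils. It was at 22.0, 13.8 and 14.4 CPM in BM mature and 5.76, 7.26 and 6.24 CPM in spleen mature basophils, and the mature groups were apart from each other and from the rest. Top2a, the topoisomerase that untangles sister chromatids, was at 421, 310.0 and 239 CPM in BaPs and at 323, 262 and 278 CPM in pre-basophils. In BM mature basophils Top2a was at 44.5, 36.6 and 27.0 CPM and in spleen mature basophils at 12.3, 11.9 and 11.9 CPM, and these groups did not overlap. Cdca2, a subunit that brings protein phosphatase 1 to chromosomes, was at 35.2, 28.00 and 34.2 CPM in pre-basophils and at 5.09, 4.26 and 2.81 CPM in BM mature basophils. Mki67, the source of the Ki-67 antigen used to stain dividing cells, was 8.17-fold higher in pre-basophils (log2 3.03 ± 0.30).

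The remaining chromatin genes had smaller differences. Cbx5, which encodes heterochromatin protein 1 alpha, was 4.95-fold, the histone chaperone gene Anp32e 4.27-fold and the DNA-bending protein gene Hmgb2 2.39-fold higher in pre-basophils. Smc4, the core ATPase of both condensins, stood at 204, 179.9 and 214 CPM in pre-basophils, at 99.0, 93.9 and 96.8 in BM mature and at 97.3, 70.3 and 83.8 CPM in spleen mature basophils. Ctcf, the zinc-finger protein that bounds chromatin loops, stood at 124, 97.1 and 103 CPM in BaPs, at 111, 109 and 103 in pre-basophils, at 79.6, 78.1 and 79.9 in BM mature and at 71.7, 63.9 and 60.2 CPM in spleen mature basophils. The BM groups of Ctcf did not overlap although its fold change was the smallest of the 47 called (log2 0.44 ± 0.12, edgeR adjusted p = 0.0117). The difference of Ctcf was 0.42 and did not pass without pre-basophil replicate 1 (edgeR adjusted p = 0.0557).

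The 2 nuclear envelope genes differed from each other. Tmpo, which encodes the lamina-associated protein LAP2, was at 337, 261 and 175 CPM in BaPs, at 304, 223 and 236 in pre-basophils, at 53.8, 53.6 and 49.2 in BM mature and at 45.5, 43.2 and 41.2 CPM in spleen mature basophils, 4.87-fold apart between the BM stages (edgeR adjusted p = 1.4e-06). Lbr, the lamin B receptor, which shapes the granulocyte nucleus, was at 236, 244 and 203 CPM in BaPs, at 336, 331 and 338 in pre-basophils, at 275, 319.5 and 303 in BM mature and at 306, 361 and 334 CPM in spleen mature basophils. Its pre-basophil libraries lay above its BM mature libraries by less than the test required (log2 0.16 ± 0.11, edgeR adjusted p = 0.314), and its BaP libraries were below all others.

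Read as a share of the pre-basophil mean, the level left in BM mature basophils had a median of 18.9% over the 52 genes, from 7.17% for Aurka to 125.8% for Cks2. It was under 20% in 30 genes, between 20% and 50% in 15 and at least 50% in 7. In spleen mature basophils the median was 8.21%, from 2.14% for Ccnb2 to 99.6% for Lbr, and 29 genes were under 10%. Library by library, the median over the genes was 19.2%, 19.4% and 15.4% in BM mature and 9.83%, 8.13% and 8.10% in spleen mature basophils. By role, the median left in BM mature basophils was 12.8% for the CDK1 engine and 12.7% for the kinases, 19.0% for the kinetochore, 19.9% for the spindle, 20.2% for chromatin and 27.1% for cytokinesis. In spleen the medians were 3.57% for the CDK1 engine, 4.67% for the kinases, 9.01% for the spindle, 10.6% for the kinetochore, 13.5% for chromatin and 19.0% for cytokinesis. These medians describe the lists and were not tested against each other.

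**Figure D3:**
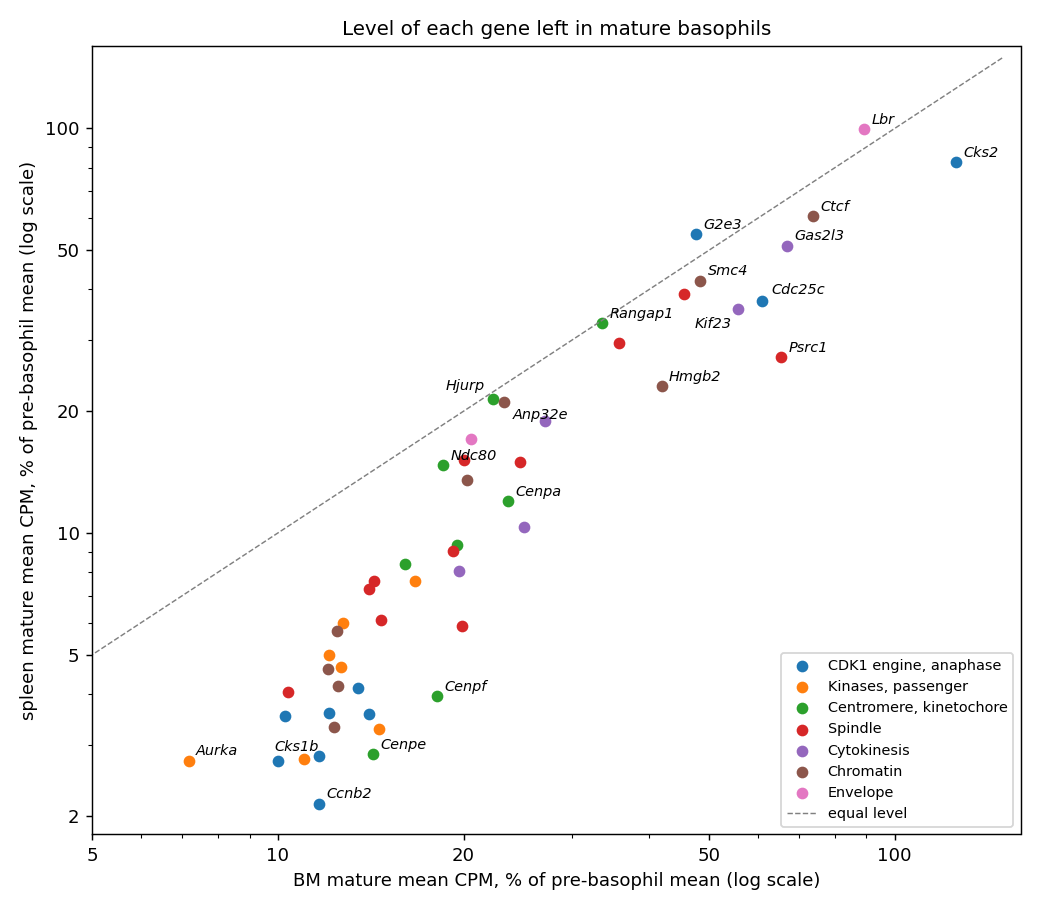
Mean CPM of each gene in BM mature (horizontal) and spleen mature basophils (vertical), each as a percentage of its pre-basophil mean, on log scales. Each point is a gene coloured by role, and the dashed line marks equal levels. Nearly all points lie below the line, and Lbr, Cks2, Ctcf, G2e3 and Gas2l3 are the genes that held at least 50% of the pre-basophil level in spleen.

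Markers of other cells moved with this comparison. The summed level of 8 neutrophil markers, all of them detected and among them the progenitor gene Mpo, ran from 996 to 2317 CPM in pre-basophils, against 89.7 to 127 CPM in BM mature basophils. The defining late granule gene Ltf was at 17.6 to 149.5 CPM and at 0.751 to 2.995 CPM. T or NK cell markers (7 of 7 in the table) summed to 208 to 233 CPM and 80.1 to 112 CPM. That order came from Nkg7 (mean 204 and 66.3 CPM), and the mean levels of 5 of the 7, among them Cd3e and Lck, were higher in BM mature basophils, with Cd3e at 0 in 1 pre-basophil library. Erythroid and monocyte or macrophage lists moved the other way. The 7 erythroid markers summed to 42.8 to 56.0 CPM in pre-basophils and 184 to 203 CPM in BM mature basophils, mostly from the 4 globin genes. The 6 monocyte or macrophage markers summed to 76.9 to 103.5 CPM in pre-basophils and 198 to 241 CPM in BM mature basophils, mostly from Ccr2, with Csf1r, Cd68 and C1qa higher in pre-basophils. Their part in the differences of the mitosis genes was not tested.

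Between BaPs and pre-basophils few of the genes of G2 and mitosis passed the test. Called higher in BaPs was 1 of the 52, against 2.84% of all tested genes, and called lower were 3, against 4.52%. The median log2 fold change was -0.13, with 19 genes above 0 and 33 below. The median of the genes as a share of the pre-basophil mean was 115% in BaP replicate 1, 90.3% in replicate 2 and 70.4% in replicate 3. Without replicate 3 the median log2 fold change was 0.04, with 29 genes above 0, and 2 genes were called higher and 2 lower, against 6.20% and 6.38% of all genes tested in that fit. Scaled by library size alone, the median was 0.06 with 29 genes above 0, against a median of 0.23 over all tested genes. With that scaling 2 genes were called higher and 1 lower, against 8.31% and 2.22% of all tested genes.

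Lbr showed the clearest of these differences, with every BaP library below every pre-basophil library (log2 -0.56 ± 0.11, edgeR adjusted p = 0.00711). Its difference was -0.47 when BaP replicate 3 was left out (edgeR adjusted p = 0.00225), and Lbr was called under each of the 20 alternatives. Ccnb2 (log2 -0.62 ± 0.17, edgeR adjusted p = 0.0327) and Cenpa (log2 -0.52 ± 0.15, edgeR adjusted p = 0.0450) were lower in BaPs, again with no overlap. Without BaP replicate 3, Ccnb2 was at -0.44 (edgeR adjusted p = 0.0424), while Cenpa was at -0.38 and no longer passed (edgeR adjusted p = 0.0556). Cbx5 was the gene called higher, at 103, 102 and 81.3 CPM in BaPs against 72.4, 58.4 and 64.0 CPM in pre-basophils, with no overlap (log2 0.56 ± 0.15, edgeR adjusted p = 0.0347). With replicate 3 left out it was at 0.67 (edgeR adjusted p = 0.00219), and Cks1b was then also called higher, at 0.40 (edgeR adjusted p = 0.0436). The call of Ccnb2 was lost without BaP replicate 2, BM mature replicate 2 or any pre-basophil library, and that of Cbx5 without BaP replicate 1 or 2, BM mature replicate 1 or 2 or any pre-basophil library (edgeR adjusted p of 0.0503 to 0.143 and of 0.0513 to 0.167). The call of Cenpa held with 1 library left out only when that was BaP replicate 1 or BM mature replicate 3, and otherwise its edgeR adjusted p was 0.0501 to 0.160. All 3 calls were also lost with the 6 compared libraries only (edgeR adjusted p = 0.0948 for Ccnb2, 0.0638 for Cbx5 and 0.0997 for Cenpa). Library size alone lost Ccnb2 (edgeR adjusted p = 0.0704) and Cenpa (0.156), and RLE scaling lost Cenpa (0.0593). With the replicate number as a block, Cenpf was also lower in BaPs (log2 -0.50, edgeR adjusted p = 0.0343).

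In spleen mature basophils the genes of G2 and mitosis were lower again than in BM mature basophils. Called lower were 23 of the 52, against 4.76% of all tested genes, and none was called higher, against 3.12%. The median log2 fold change was -1.07, against 0.005 over all tested genes, and 50 of the 52 were below 0. For the other 29 genes, a p that misses the threshold does not show that the tissues were alike.

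The largest falls were in Ccnb2, 5.32-fold lower in spleen (log2 -2.41 ± 0.25, edgeR adjusted p = 0.000178), and in the kinetochore genes Cenpe (4.88-fold) and Cenpf (4.52-fold). Nek2 (4.32-fold), Ube2c (4.06-fold), Cdc20 (3.87-fold), Mki67 (3.70-fold), Cks1b (3.62-fold) and Cdk1 (3.33-fold) were also lower in spleen. The spleen libraries of Ccnb2 held 13, 13 and 16 counts against 43, 46 and 50 in BM mature libraries, and those of Cenpf 22, 19 and 19 against 55, 59 and 53. The tissues did not overlap for either gene. By role, called lower in spleen were 5 of 10 genes of the CDK1 engine, 4 of 7 kinases, 3 of 8 kinetochore genes, 5 of 11 spindle genes, 2 of 5 cytokinesis genes, 4 of 9 chromatin genes and none of the 2 envelope genes.

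Top2a was 2.96-fold (edgeR adjusted p = 0.00133), Ncapd2 2.57-fold (edgeR adjusted p = 0.00333) and Cenpa 1.96-fold lower in spleen (edgeR adjusted p = 0.00328). Hmgb2 was 1.82-fold lower, and the passenger genes Aurkb, Cdca8 and Birc5 were 2.59-, 2.36- and 2.17-fold lower. Psrc1, which did not pass between the BM stages, was lower in spleen (log2 -1.24 ± 0.34, edgeR adjusted p = 0.0340). Several of these calls were lost under some of the 20 alternatives. Psrc1 was lost under 7 of them, namely library size alone, limma-voom and the omission of BM mature replicate 1 or 2 or any spleen library (adjusted p of 0.0563 to 0.172). Cdca8 and Cdk1 were lost under 6 each, with limma-voom and without BM mature replicate 1 or 2 or any spleen library (adjusted p of 0.0504 to 0.0993 and of 0.0530 to 0.115). Aurkb was lost under 5, with limma-voom and without replicate 1 or 2 of either tissue (adjusted p of 0.0600 to 0.119). Birc5 was lost under 3, with limma-voom and without BM mature replicate 1 or spleen replicate 3 (adjusted p of 0.0521 to 0.0768). Hmgb2 was lost without BM mature replicate 1 or spleen replicate 3, and Ube2c without spleen replicate 3 (edgeR adjusted p of 0.0530 to 0.0578). The calls of Nusap1, Ect2, Kif11 and Tpx2 were lost under 7, 5, 4 and 2 alternatives, each of them with limma-voom among others. Their adjusted p was then 0.0505 to 0.157 for Nusap1, 0.0923 to 0.133 for Ect2, 0.0619 to 0.0795 for Kif11 and 0.0535 to 0.0651 for Tpx2.

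Several genes that fell between the BM stages showed log2 differences between the tissues near 0. Hjurp differed by -0.07 ± 0.17, Rangap1 by -0.01 ± 0.17, Anp32e by -0.16 ± 0.16, Smc4 by -0.20 ± 0.15 and Tmpo by -0.27 ± 0.20 on the log2 scale. Within the pair that handles the centromeric histone, Cenpa fell further in spleen while its chaperone Hjurp was at 45, 78 and 95 counts in BM mature and 86, 127 and 113 counts in spleen mature libraries, with overlapping CPM. That the genes respond differently was not tested. Lbr (0.16 ± 0.11) and G2e3 (0.22 ± 0.25) were the genes above 0.

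B cell markers moved with the tissues. The 7 markers summed to 191 to 326 CPM in spleen mature and 43.6 to 58.0 CPM in BM mature libraries, with Cd79a at 18.2 to 41.8 CPM and 2.23 to 4.68 CPM and Vpreb1 at 0 in 1 spleen library. Their part in the falls was not tested. The number of genes called lower depended on the libraries, and so did the share of all tested genes called lower. They were 14 without spleen mature replicate 3 (against 1.30% of all genes), 15 without BM mature replicate 1 (against 1.55%) and 33 without BaP replicate 3 (against 10.3%).

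**Figure D4:**
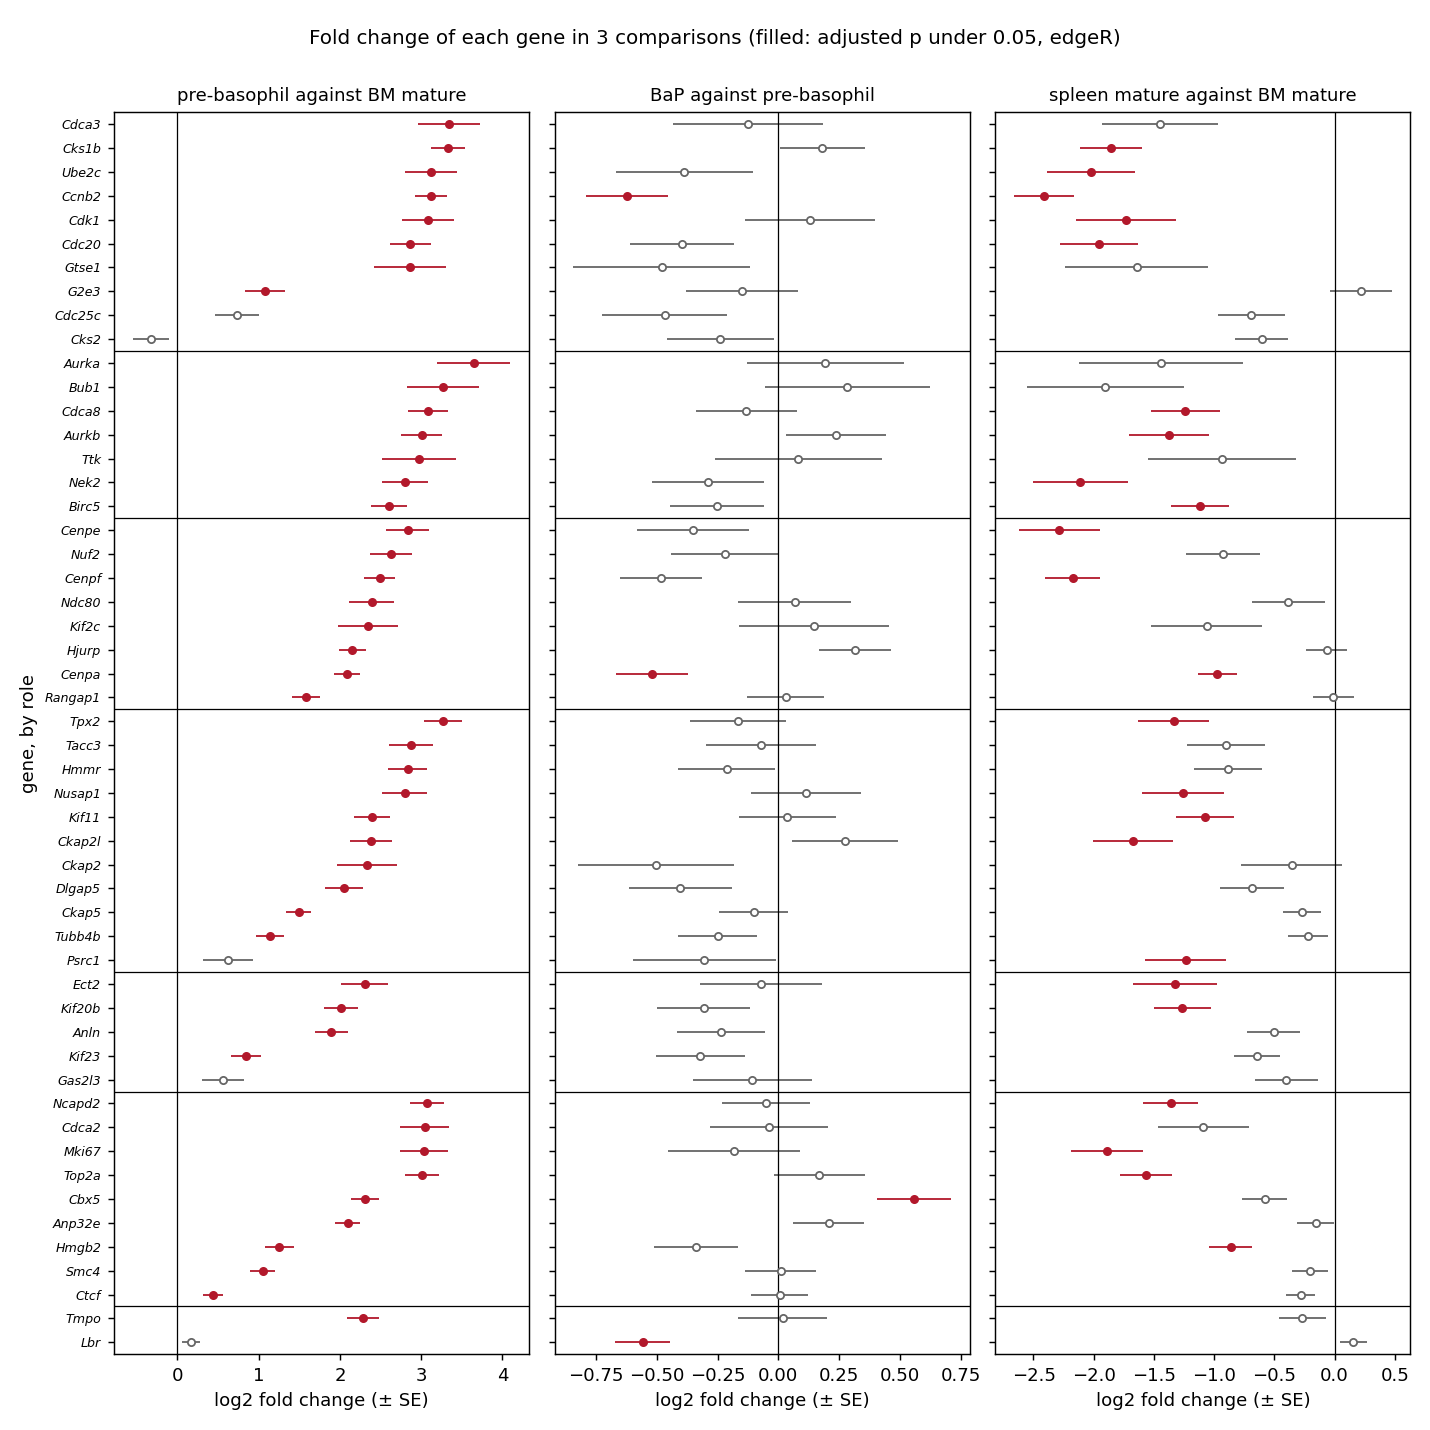
Log2 fold change with its SE of each of the 52 genes (rows, by role) in 3 comparisons, from 1 edgeR fit of all 12 libraries. Filled points passed an adjusted p of 0.05. In the left panel 47 points are filled, all to the right of 0. In the middle panel 4 are filled. In the right panel 23 are filled, all to the left of 0.

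Another 97 genes of the same machinery and its regulators, listed by function, were examined for the same comparisons. In pre-basophils 82 were called higher and 1 lower than in BM mature basophils, against 16.4% and 10.9% of all tested genes. Against pre-basophils 1 (1.03%) was called higher in BaPs and 0 lower, against 2.84% and 4.52% of all tested genes. Against BM mature basophils 24 (24.7%) were called lower in spleen and 0 higher, against 4.76% and 3.12% of all tested genes. The cyclin A2 gene Ccna2 (log2 3.28 ± 0.27) and the APC/C inhibitor gene Fbxo5 (3.23 ± 0.27) were the farthest apart among cyclins and CDK1 regulators. Pttg1 (securin) at -0.45 ± 0.22 and the APC/C activator gene Fzr1 at 0.14 ± 0.13 were at the other end and did not pass. Cdc25a, a phosphatase of the G1/S and G2/M transitions, was the gene higher in BaPs than in pre-basophils (log2 0.96 ± 0.23, edgeR adjusted p = 0.0182).

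Among further checkpoint genes, Sgo1 (3.67 ± 0.58), which guards centromeric cohesion, and Pbk (3.37 ± 0.38) had the largest and Bora (1.53 ± 0.27) and Plk4 (1.13 ± 0.21) the smallest log2 differences of pre-basophil against BM mature, and all 12 passed. The BM mature libraries held 5, 4 and 0 counts of Sgo1 and 8, 4 and 5 counts of Pbk, so their differences rest on few mature reads. Of 24 further kinetochore genes 22 passed, with Spc25 (3.45 ± 0.26) and Spc24 (2.87 ± 0.30) at the top and Nsl1 (0.54 ± 0.39) and Zw10 (0.36 ± 0.16), which did not pass, at the bottom. All 21 further spindle and cytokinesis genes passed, from Pimreg (4.42 ± 0.38) and Troap (3.61 ± 0.34) to Kif18a (1.64 ± 0.27) and Nde1 (0.94 ± 0.17). The 6 other condensin genes passed too. The log2 differences of the condensin I genes were 3.46 ± 0.27 for Ncapg and 2.88 ± 0.29 for Ncaph, and that of Smc2, shared by both condensins, was 3.20 ± 0.23. Those of the condensin II genes were 2.53 ± 0.23 for Ncapg2, 1.39 ± 0.17 for Ncapd3 and 0.99 ± 0.16 for Ncaph2, and the complexes were not tested against each other.

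The 17 regulators were split. Foxm1, the forkhead factor of G2 genes, was at 38.9, 38.7 and 33.6 CPM in pre-basophils and at 6.05, 5.76 and 2.995 CPM in BM mature basophils (log2 2.95 ± 0.34, edgeR adjusted p = 2.47e-05). Mybl2, which joins MuvB in S phase, was higher in pre-basophils by 2.45 ± 0.34. The E2F genes E2f7 (2.05 ± 0.20) and E2f1 (1.90 ± 0.28), the MuvB gene Lin9 (1.53 ± 0.25), the pocket protein gene Rbl1 (1.51 ± 0.24) and the histone-binding gene Rbbp4 (1.05 ± 0.16) were higher too. The NF-Y genes Nfya (0.64 ± 0.21) and Nfyb (0.53 ± 0.19) and the E2F partner gene Tfdp1 (0.51 ± 0.17) passed with smaller differences. The MuvB genes Lin37, Lin52 and Lin54, and E2f4, E2f8 and Nfyc, did not pass. Rbl2, which encodes p130, the pocket protein of the DREAM complex in resting cells, was the gene lower in pre-basophils (log2 -0.53 ± 0.15, edgeR adjusted p = 0.0139). It stood at 81.6, 97.1 and 68.8 CPM in pre-basophils and at 114, 129 and 114 CPM in BM mature basophils, without overlap. Of the 17, Rbbp4 was the one that differed between the tissues, lower in spleen (log2 -0.56 ± 0.16, edgeR adjusted p = 0.0448).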

How the data were processed

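Polyadenylated RNA of sorted cells was amplified as complementary DNA by the TAS-Seq workflow, fragmented and sequenced. The deposited values are unnormalized counts, which the authors obtained for each gene with Cutadapt 3.4 and Bowtie2 2.4.2 against reference RNA. The study's methods name GRCm38, while the submitters' processing notes list GRCm39 and mm39, and no coordinates of the count table were used. Strand use and the treatment of reads matching several genes are not given in the sources used here, so values of genes with near-identical copies or overlapping neighbours are uncertain. Molecular identifiers are not mentioned, so counting floors (3 counts) cover counting error only.

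The 52 genes, their roles, the 97 further genes and the marker lists were chosen with earlier results of these data known. Genes were filtered with filterByExpr and fitted in edgeR 4.0.16 (R 4.3.3) with TMM scaling, robust quasi-likelihood dispersions and 1 coefficient per group over all 12 libraries. A gene was called at an adjusted p under 0.05 (Benjamini-Hochberg over 15083 genes), and p-values measure the spread between pools of animals from 1 experiment. Values by library are given for the 2 most and 2 least changed genes of each role (by the fold change of pre-basophil against BM mature), for genes called in the other comparisons (at most 8 each) and for genes not called between the BM stages. The genes with printed promoters were picked after results were seen.

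Replicate numbers come from the sample titles. Deviations from group means correlated between libraries of the same number at 0.138 to 0.223 for pre-basophil and BM mature and at 0.125 to 0.262 for BaP and pre-basophil. In both comparisons 6 of 6 libraries were closest to their own number, so the numbers may mark pairs. The main fit left the number out, so its SEs and p-values are unpaired. A fit with the number as a block was an alternative. Other alternatives were RLE and upper-quartile scaling, library size alone, no filter, DESeq2 1.42.0, limma-voom (limma 3.58.1), the 6 compared libraries only, and each library left out. Promoter windows are from RefSeq, and no window was used here for Aurkb, Cdc25c, Cdca2, Dlgap5, Smc4 and Tpx2.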

Additional observations from a re-analysis of the deposited data

How the results depend on the processing

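Between pre-basophils and BM mature basophils 47 to 49 genes were called under every alternative, and of the 47 calls only that of Ctcf was lost, without pre-basophil replicate 1, where Cdc25c was gained. With 1 library left out, 47 to 49 were called, 47 to 48 higher and 0 to 1 lower. Of all tested genes, 16.4% were called higher and 10.9% lower in the main fit. Under the alternatives these shares were 7.66% (without the filter on low counts) to 24.7% and 5.12% to 18.4%. Cks2 was called lower in pre-basophils with the 6 compared libraries only (1 gene lower) and without BaP replicate 3. In those fits 18.4% and 15.8% of all tested genes were called lower. Between BaPs and pre-basophils the calls were few and moved. With the 6 libraries only, 1 gene was called, 0 higher and 1 lower, against 1.36% and 1.94% of all genes tested in that fit. Library size alone gave 2 higher (Hjurp added, log2 0.51) and 1 lower, against 8.31% and 2.22%. With 1 library left out, 1 to 4 were called, 0 to 2 higher and 1 to 4 lower. That number was 1 without BaP replicate 2, any 1 pre-basophil library or BM mature replicate 2, and 2 without BM mature replicate 1. The share of all tested genes moved too. It was 0.677% to 6.2% higher and 2.01% to 6.38% lower with 1 library left out, against 2.84% and 4.52% in the main fit. Between the tissues the 23 calls, all lower in spleen, became 14 with limma-voom and 14 to 33 with 1 library left out, and 32 without a filter on low counts. The share of all tested genes called lower in spleen was 4.76% in the main fit. It was 3.77% with limma-voom, 1.30% to 10.3% with 1 library left out and 2.93% without the filter. No call changed direction.

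Scaling by library size alone, in place of TMM, shifted the median over all tested genes to log2 fold changes of 0.22 for pre-basophil against BM mature, 0.23 for BaP against pre-basophil and 0.14 for spleen against BM mature. The share of calls that were higher among all tested genes rose from 60.0% to 82.8%, from 38.6% to 78.9% and from 39.6% to 60.0%. The median of the 52 genes was then 2.61, 0.06 and -0.94, and their summed level was 1925 CPM in BM mature and 1450 CPM in spleen mature basophils. With the replicate number as a block, 48 genes were called between the BM stages, all higher in pre-basophils, against 17.7% of all tested genes. Between BaPs and pre-basophils 5 were called, 1 higher and 4 lower, against 4.04% and 6.05%. Between the tissues 29 were called lower in spleen, against 6.86%. Of the calls between BM groups the block changed those of Cdc25c and Cenpf. Between the mature tissues the correlations by number were 0.008 to 0.025, with 4 of 6 libraries closest to their own number. Whether the numbers mark pairs there is not settled. Low counts limit the mature groups, in which 6 genes had a spleen library at 3 counts or fewer, although the spleen libraries held 6344238 to 8151030 counts in total.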
